A study of Mus musculus with 6 samples.

Results

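The 4 kinases that phosphorylate the alpha subunit of the translation initiation factor eIF2, and the transcription factor ATF4 with genes that act downstream of it, were measured in mouse erythroblasts, the nucleated precursors of red cells. The 10 genes were chosen by name: the kinase genes Eif2ak1, Eif2ak2, Eif2ak3 and Eif2ak4, and Atf4, Ddit3, Ppp1r15a, Trib3, Asns and Chac1. All 10, of 12393 genes measured, were on the Affymetrix array, with 19 probe sets annotated to 1 of these symbols alone, out of 22626 probe sets tested. The erythroblasts were bone marrow cells sorted for CD71, which is the transferrin receptor, and each sample was hybridised to 1 array. The 3 mutant samples came from FVB/N mice expressing a transgene for RPS19 with the protein change R62W, and the 3 wild type samples from FVB/N mice. RPS19 is a protein of the small ribosomal subunit that is often mutated in Diamond-Blackfan anaemia, in which red cell production fails, and the comparison asks which transcripts differ in erythroblasts that express the mutant protein. Not given in the sources used here are the promoter that drives the transgene, the age and sex of the mice, and whether each sample is a separate animal. The p-values therefore rest on the spread among these samples alone, and that spread may be technical.

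Phosphorylation of eIF2 alpha turns eIF2 into an inhibitor of eIF2B, the factor that recharges eIF2 with GTP, and this lowers the start of translation on most messenger RNAs. A few messenger RNAs with short upstream reading frames, that of ATF4 among them, are then translated better, and ATF4 switches on genes of amino acid supply and stress. Each kinase senses another signal. HRI, encoded by Eif2ak1, is held inactive by haem and in erythroid precursors matches globin synthesis to the supply of haem, PKR (Eif2ak2) binds double-stranded RNA, PERK (Eif2ak3) senses unfolded protein in the endoplasmic reticulum and GCN2 (Eif2ak4) senses uncharged transfer RNA. Phosphorylation and protein were not measured here. In sorted populations, fewer cells of a type and less RNA per cell cannot be told apart.

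The mutant arrays differed more among themselves than the wild type arrays did. The SD of the log2 difference between a pair of arrays, taken over all probe sets, was 0.345 to 0.503 within the mutant group and 0.143 to 0.186 within the wild type group. Bacterial polyadenylated RNA controls averaged 12.83 ± 1.08 on mutant arrays and 8.755 ± 0.016 on wild type arrays (log2, SD, n = 3 each, exact permutation p = 0.1, two-sided, the smallest that 3 against 3 can give). The 3' minus the 5' Gapdh control was 0.275 ± 0.032 on mutant arrays and -0.066 ± 0.019 on wild type arrays (log2, SD, n = 3 each, exact permutation p = 0.1). The Y-linked Eif2s3y read 8.34 on mutant replicate 3, where all Xist probe sets, of the X inactivation transcript, were below it, against 2.27 and 2.35 on mutant replicates 1 and 2 and 2.23 to 2.45 on the wild type arrays, where they were above it. Of 8 erythroblast markers listed, 7 were measured and 0 differed by limma, of which Hba-a1 read 2.87 to 3.12 on mutant and 3.06 to 3.27 on wild type arrays, at the dim end of the scale, whereas Gata1, Klf1, Alas2 and Slc4a1 all read above 9 on every array. The summed signal of the erythroblast markers was 8535 to 13574 on mutant arrays, lowest on replicate 1, and 12479 to 13392 on wild type arrays. All 8 neutrophil markers were measured, and their sum was 14390 to 42917 on mutant arrays, highest on replicate 1, and 26522 to 28748 on wild type arrays. Monocyte and macrophage markers, with 7 of 8 measured and Adgre1 dim, summed to 778 to 1676 on mutant and 1383 to 1525 on wild type arrays. All 5 measured B cell markers of 6 listed had the higher mean in mutant samples, 0 of them called, and summed to 494, 1928 and 1016 on mutant replicates 1, 2 and 3 and to 478 to 513 on wild type arrays. All 5 megakaryocyte markers had the higher mean in mutant samples too, and summed to 520 to 820 on mutant and 435 to 451 on wild type arrays. Only Vwf was called, at 1.48 (log2, adjusted p = 0.0154, limma). Gp1bb was dim and differed by 0.003. Pf4 lay above the wild type arrays on mutant replicate 1 alone, at 9.02, and Gp9, at 6.60 on that array, lay below every wild type array. The 6 T and NK cell markers, with Cd3g and Cd8a dim, summed to 320 to 750 on mutant and 401 to 448 on wild type arrays. Their part in the differences below was not tested.

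Upstream sequences from RefSeq (GRCm38.p6), each from 250 bases before to 50 bases after the annotated gene start, are shown for the kinase gene with the only called difference and for the 3 targets whose window holds a letter match to the composite element that ATF4 binds with C/EBP partners. All 10 genes had such a window. The window of Eif2ak2 lies at chr17:78882523-78882822 on the minus strand, and capitals mark GAAA, 2 bases of any kind and GAAA again, the core of an interferon-stimulated response element, 18 to 27 bases after the start. The windows of Asns (chr6:7693160-7693459, minus strand), Chac1 (chr2:119350992-119351291, plus strand) and Trib3 (chr2:152344011-152344310, minus strand) carry TGATGNAA in capitals, on the gene's own strand in Asns and on the opposite strand in the others. All are written 5' to 3' along the gene.
Eif2ak2: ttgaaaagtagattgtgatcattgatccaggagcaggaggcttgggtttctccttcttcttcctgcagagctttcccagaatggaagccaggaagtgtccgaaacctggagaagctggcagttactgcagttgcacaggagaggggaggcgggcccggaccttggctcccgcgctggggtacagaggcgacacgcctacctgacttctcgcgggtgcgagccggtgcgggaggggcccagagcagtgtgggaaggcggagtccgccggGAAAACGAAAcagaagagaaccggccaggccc
Asns: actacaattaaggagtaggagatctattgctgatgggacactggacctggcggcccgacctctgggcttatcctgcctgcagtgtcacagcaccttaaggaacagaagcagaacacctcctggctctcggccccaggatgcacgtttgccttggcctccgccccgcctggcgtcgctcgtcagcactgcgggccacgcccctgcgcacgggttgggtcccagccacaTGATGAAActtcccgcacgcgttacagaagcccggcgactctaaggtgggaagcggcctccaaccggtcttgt
Chac1: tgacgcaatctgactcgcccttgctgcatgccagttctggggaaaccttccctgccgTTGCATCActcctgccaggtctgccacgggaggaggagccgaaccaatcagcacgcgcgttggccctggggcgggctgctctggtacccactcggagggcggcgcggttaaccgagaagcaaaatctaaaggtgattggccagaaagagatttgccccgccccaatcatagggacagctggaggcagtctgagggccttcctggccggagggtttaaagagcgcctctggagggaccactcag
Trib3: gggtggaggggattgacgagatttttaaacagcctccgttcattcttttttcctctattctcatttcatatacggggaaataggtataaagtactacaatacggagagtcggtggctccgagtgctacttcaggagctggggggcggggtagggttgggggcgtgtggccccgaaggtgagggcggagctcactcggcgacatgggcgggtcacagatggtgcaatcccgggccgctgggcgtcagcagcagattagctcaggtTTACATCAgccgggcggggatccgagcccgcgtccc
TGATGNAA, searched on both strands, was found in 3.97% of 32851 windows of this length and in those of 3 of the 10 genes. It lay 16 to 23 bases before the start in Asns, 186 to 193 bases before it in Chac1 and 14 to 21 bases after it in Trib3. The interferon element core, also searched on both strands, was found in 3.44% of the windows and, of the 10 genes, in Eif2ak2 and Ppp1r15a, where it lay 211 to 220 bases before the start. A letter match describes these windows only and is no measure of binding.

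Among the 19 probe sets 1 passed the test, a fall of Eif2ak2, and 0 rose. Over all 22626 probe sets 2.33% passed (limma, adjusted p under 0.05), 1.39% lower and 0.941% higher in mutant samples. At an unadjusted p under 0.05 there were 5 of the 19, against 19.1% of all probe sets. The mutant and wild type values did not overlap for 5 of the 19 (4 lower and 1 higher in mutant samples), against 26.1% of all probe sets. These shares lie close to those of all probe sets. The median difference of the 19 was -0.09 on the log2 scale, mutant minus wild type, and that of all probe sets was -0.01. The median deviation of the 19 from the wild type means was -0.22 on mutant replicate 1, 0.04 on replicate 2 and -0.04 on replicate 3, so the low side was carried by 1 mutant array, and without that array the median difference was -0.01. The SD of the mutant values was the larger for 16 of the 19 probe sets, as it was for 76.7% of all probe sets.

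**Figure D1:**
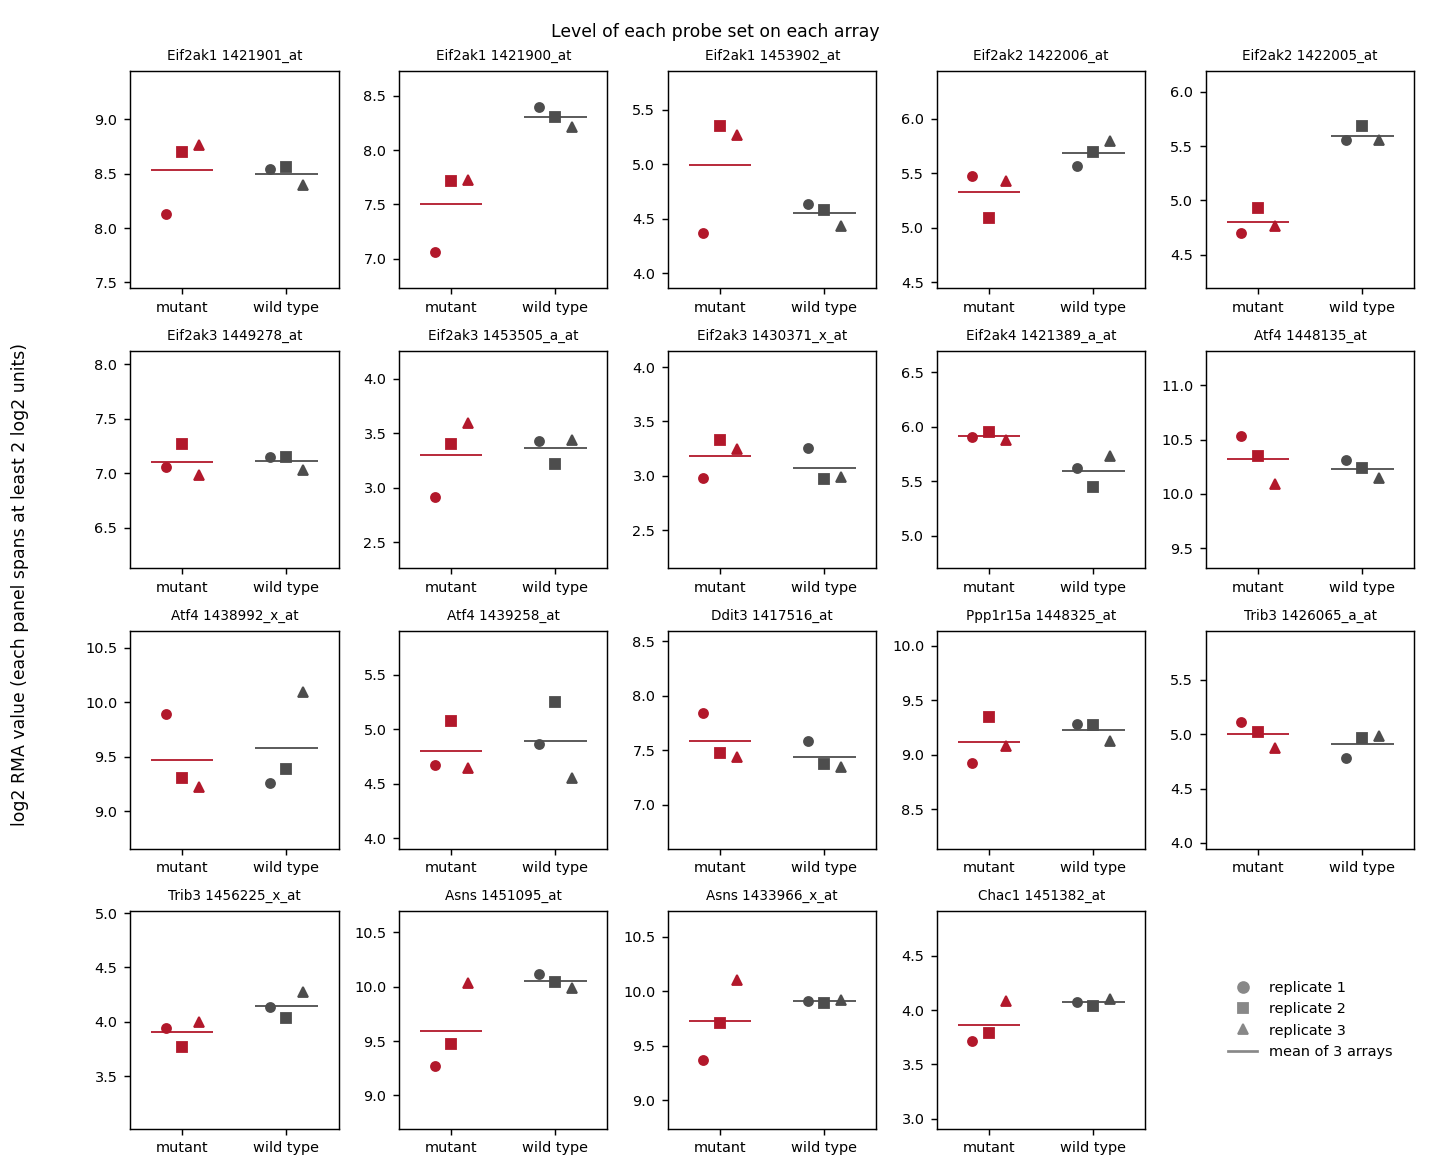
Log2 RMA values (vertical axis, its range set per panel) of the 19 probe sets of the 10 genes on the 3 mutant arrays (red, left) and 3 wild type arrays (grey, right); symbols mark the replicate and bars the group mean. The groups stand furthest apart relative to their spread for Eif2ak2 1422005_at, while the Atf4, Ddit3, Ppp1r15a and Eif2ak3 panels overlap.

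Eif2ak2, which encodes the double-stranded RNA sensor PKR, had the lower mean in the sorted mutant samples. Its probe set 1422005_at read 4.70, 4.93 and 4.76 on mutant replicates 1, 2 and 3, against 5.55, 5.68 and 5.55 on wild type replicates 1, 2 and 3 (log2). All mutant values lay below all wild type values, and the mean was 4.80 ± 0.12 in mutant and 5.60 ± 0.07 in wild type samples (SD, n = 3 each). The difference was -0.80 ± 0.10 (log2, SE, 95% confidence interval -1.04 to -0.56), or 0.576 of the wild type level, with an adjusted p of 0.0155 by limma. The other Eif2ak2 probe set, 1422006_at, read 5.47, 5.09 and 5.43 in mutant and 5.57, 5.70 and 5.79 in wild type samples. These groups did not overlap either, but the difference of -0.36 ± 0.13 did not pass (adjusted p = 0.203, limma). Averaged over both probe sets the Eif2ak2 difference was -0.58 (adjusted p = 0.0502). Probe set 1422005_at was also called without each mutant array in turn, with adjusted p-values of 0.00718, 0.0284 and 0.0257. The call was lost when any 1 wild type array was left out, with adjusted p-values of 0.118, 0.130 and 0.0972 without wild type replicates 1, 2 and 3, and with the replicate number as a block it was 0.0529, while the difference itself stayed between -0.86 and -0.75. Both probe sets are dim, with a mean near the median of the arrays. The 3' to 5' difference of the Gapdh control moved with the same groups, and its part in the result was not tested.

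Interferon induces Eif2ak2, so 22 widely used interferon-stimulated genes were set beside it, as a list chosen after the Eif2ak2 value was seen. Of these 18 were measured, by 21 probe sets. The mean was lower in mutant samples for 15 of the 21, and for 11886 of all 22626 probe sets. The median difference was -0.15, against -0.01 over all probe sets. Without overlap, 6 probe sets were lower and 1 was higher in mutant samples, beside 14.7% and 11.4% of all probe sets. By limma 1 fell and 1 rose, beside 1.39% lower and 0.941% higher over all probe sets. Ifitm3, which hinders virus entry, read 8.40, 8.17 and 8.13 in mutant and 8.94, 8.90 and 8.90 in wild type samples (adjusted p = 0.0263, limma). Ifit2, a cytoplasmic RNA-binding protein gene of the same response, read 6.30, 6.44 and 6.66 in mutant and 5.87, 5.82 and 5.77 in wild type samples (adjusted p = 0.0391, limma). The called genes thus read on opposite sides of the wild type level, while most probe sets without overlap were on the low side. The list's median deviation from the wild type means was -0.37 on mutant replicate 1, 0.01 on replicate 2 and -0.10 on replicate 3.

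For Eif2ak1, which encodes the haem-regulated kinase HRI, the 3 probe sets went different ways. Probe set 1421900_at read 7.06, 7.72 and 7.73 in mutant and 8.40, 8.31 and 8.22 in wild type samples, a difference of -0.80 ± 0.19 (log2, SE) that did not pass (adjusted p = 0.0736, limma). Its groups did not overlap, and mutant replicate 1 was the lowest. The brighter probe set 1421901_at, which the annotation ties to the same source sequence, read 8.13, 8.70 and 8.77 in mutant and 8.54, 8.56 and 8.40 in wild type samples. Here mutant replicate 1 was again the lowest, the other mutant arrays were above every wild type array, and the difference was 0.03 ± 0.18 (95% confidence interval -0.38 to 0.44). The dim probe set 1453902_at read 4.37, 5.35 and 5.27 in mutant and 4.63, 4.58 and 4.43 in wild type samples, a difference of 0.45 ± 0.25 (adjusted p = 0.390). Without mutant replicate 1 calls of opposite sign appeared, -0.58 for 1421900_at (adjusted p = 0.0131) and 0.76 for 1453902_at (adjusted p = 0.00672).

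Mutant replicate 1 read lowest of the mutant arrays on all 3 Eif2ak1 probe sets, and the gap between a pair of them on the same array could be compared as well. The value of 1421901_at minus that of 1421900_at was 1.06, 0.98 and 1.04 on mutant arrays, against 0.15, 0.26 and 0.18 on wild type arrays. The means were 1.03 ± 0.044 in mutant and 0.19 ± 0.055 in wild type samples (SD, n = 3 each, exact permutation p = 0.1, the smallest possible, or 0.3 adjusted over 12 such pairs). The gap of this Eif2ak1 pair thus differed by 0.83 on the log2 scale between these samples, which a test of 3 against 3 arrays cannot call. The probe sets disagree, and no single direction can be given for the gene. Among the 12 pairs of probe sets of 1 gene, the 3 of Eif2ak1 and the pair of Asns had gaps that did not overlap between the groups. That is 33.3%, close to the 33.2% of 12821 such pairs over all genes, so nothing particular to these genes can be read from the count.

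Eif2ak4, which encodes GCN2, the sensor of uncharged transfer RNA, had a single probe set. It read 5.91, 5.95 and 5.88 in mutant and 5.62, 5.44 and 5.73 in wild type samples, with every mutant array above every wild type array. The difference of 0.31 ± 0.10 (95% confidence interval 0.07 to 0.56) did not pass over all probe sets (adjusted p = 0.165, limma). Its SD was 0.038 in mutant and 0.143 in wild type samples, the smaller in mutant, as for only 2 Atf4 probe sets besides among the 19.

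For Eif2ak3, which encodes PERK of the endoplasmic reticulum membrane, no difference was detected. Its brightest probe set, 1449278_at, read 7.06, 7.27 and 6.98 in mutant and 7.15, 7.15 and 7.03 in wild type samples. The Eif2ak3 difference was -0.01 ± 0.11, with a 95% confidence interval of -0.26 to 0.25, and its sign turned with array weights and when some arrays were left out. The 2 other probe sets of Eif2ak3 read 2.92 to 3.60 in mutant and 2.97 to 3.44 in wild type samples, at the dim end of the array, and differed by -0.06 ± 0.18 and 0.12 ± 0.13.

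**Figure D2:**
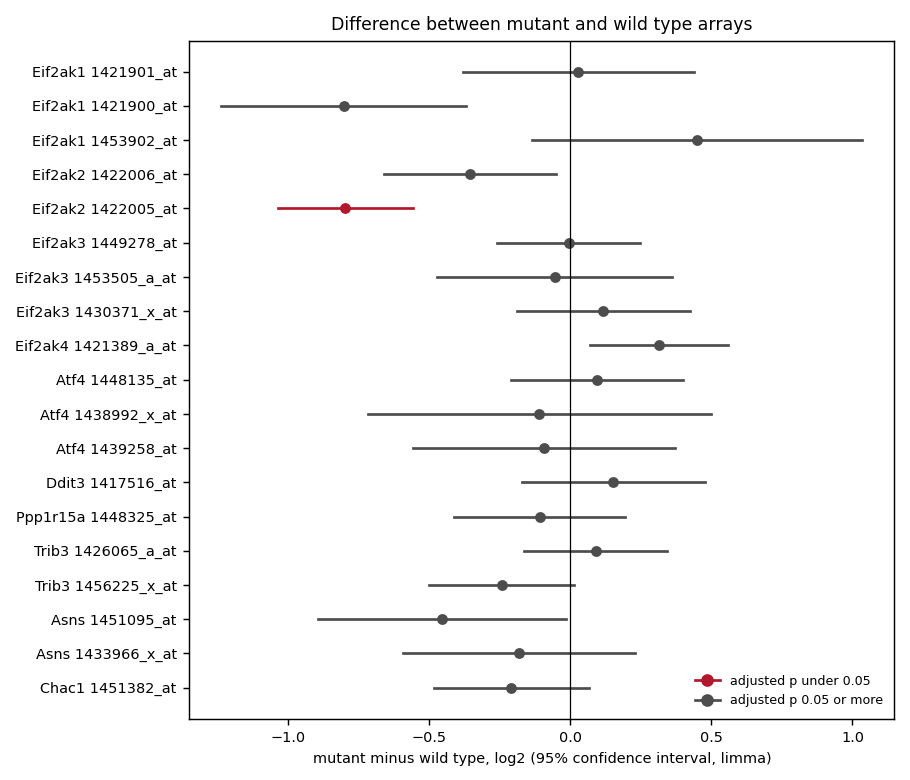
Difference between mutant and wild type arrays for each of the 19 probe sets (horizontal axis, log2, mutant minus wild type; points are estimates and bars 95% confidence intervals from limma). The interval of Eif2ak2 1422005_at runs from -1.04 to -0.56 and is the only one drawn in red, for an adjusted p under 0.05; the 3 Eif2ak1 probe sets lie on both sides of 0.

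For Atf4, the transcription factor of the response, no difference in messenger RNA level was detected. Its brightest probe set, 1448135_at, read 10.53, 10.35 and 10.10 in mutant and 10.32, 10.24 and 10.14 in wild type samples, with overlap. The difference was 0.09 ± 0.13 (log2, SE, 95% confidence interval -0.21 to 0.40, adjusted p = 0.753, limma), and without mutant replicate 1 it was -0.01. A second Atf4 probe set, 1438992_x_at, whose suffix marks probes that can match other transcripts, ran from 9.22 to 9.89 in mutant and from 9.26 to 10.09 in wild type samples, with wild type replicate 3 the highest. The third, 1439258_at, ran from 4.65 to 5.07 in mutant and from 4.55 to 5.25 in wild type samples. Their differences were -0.11 ± 0.26 and -0.09 ± 0.20. Atf4 messenger RNA is translated more when eIF2 alpha is phosphorylated, a step that these arrays do not read.

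Profiles most like that of the brightest Atf4 probe set over the 6 arrays, among the brightest probe sets of 5891 genes with a mean of at least 6, were those of Mgat2, Rab29, Cstb, Fbxl14 and Scamp2. After each profile was centred on its own mean, the root mean square difference from Atf4 was 0.028 for Mgat2 and 0.034 to 0.038 for the others. In all of these, as in Atf4, mutant replicate 1 was the highest of the 6 arrays. The genes were picked for this likeness, so the shared peak follows from the choice and is no separate result.

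Ddit3 and Ppp1r15a act behind ATF4. Ddit3 encodes CHOP, a transcription factor linked to cell death under lasting stress, and read 7.85, 7.47 and 7.44 in mutant and 7.59, 7.37 and 7.35 in wild type samples. Mutant replicate 1 was the highest and the groups overlapped, with a difference of 0.15 ± 0.14 (95% confidence interval -0.17 to 0.48, adjusted p = 0.613, limma). Ppp1r15a encodes GADD34, which directs a phosphatase to eIF2 alpha and so ends the response. It read 8.92, 9.35 and 9.08 in mutant and 9.28, 9.27 and 9.12 in wild type samples, a difference of -0.11 ± 0.13 (95% confidence interval -0.41 to 0.19, adjusted p = 0.706).

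The 3 target genes with a TGATGNAA match in the windows shown above did not pass either, and 4 of their 5 probe sets had the lower mean in mutant samples. Asns encodes asparagine synthetase. Its probe set 1451095_at read 9.28, 9.47 and 10.03 in mutant and 10.11, 10.04 and 9.99 in wild type samples, and 1433966_x_at read 9.37, 9.71 and 10.10 against 9.91, 9.89 and 9.92. On both, mutant replicates 1 and 2 lay below every wild type array and mutant replicate 3 did not. The differences were -0.46 ± 0.19 (adjusted p = 0.247, limma) and -0.18 ± 0.18 (adjusted p = 0.638). Without mutant replicate 3 the first Asns difference was -0.67 and passed (adjusted p = 0.0318).

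Chac1, which encodes an enzyme that degrades glutathione, read 3.72, 3.79 and 4.08 in mutant and 4.07, 4.04 and 4.10 in wild type samples. As for Asns, mutant replicate 3 was at the wild type level and the other mutant arrays below it, and the Chac1 difference of -0.21 ± 0.12 did not pass (adjusted p = 0.395, limma). Trib3 encodes a pseudokinase that binds ATF4 and CHOP and restrains them. Its probe set 1426065_a_at read 5.11, 5.02 and 4.87 in mutant and 4.78, 4.97 and 4.99 in wild type samples, and 1456225_x_at read 3.95, 3.77 and 3.995 against 4.13, 4.04 and 4.27. The Trib3 differences were 0.09 ± 0.11 with overlap and -0.24 ± 0.11 without overlap (adjusted p = 0.714 and 0.284). Chac1 and Trib3 are dim on this array, which narrows what a fold change on RMA values can show.

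The intervals bound differences in RMA values, and not changes in RNA amount. A rise of 1 log2 unit lay outside the 95% confidence interval of every probe set of Atf4, Ddit3, Ppp1r15a, Trib3, Asns and Chac1. The highest upper bound among them was 0.50 for Atf4 1438992_x_at. Chac1 (mean log2 3.97), Trib3 (4.96 and 4.02) and Atf4 1439258_at (4.84) are dim. Their intervals cannot decide whether the RNA itself rose that much, because a fold change on dim RMA values shows less. The intervals also rest on a shared variance for both groups, although mutant arrays varied more, and that spread may be technical. For Eif2ak1 1453902_at the upper bound was 1.03.

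**Figure D3:**
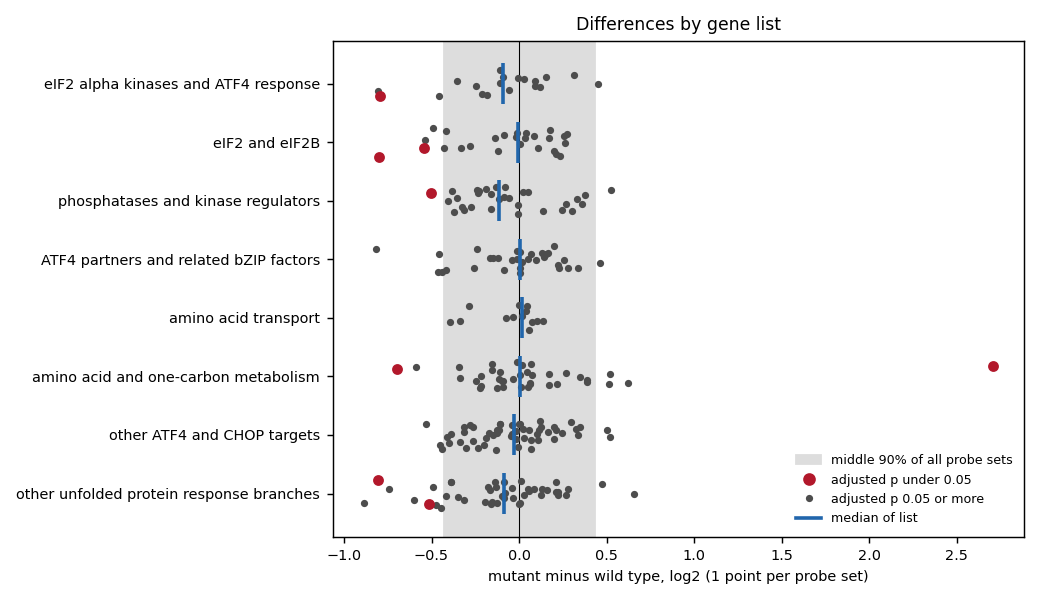
Difference of each probe set (horizontal axis, log2, mutant minus wild type) for the 10 genes and for 7 lists of related genes; red points passed at an adjusted p under 0.05, blue bars are list medians and the grey band holds the middle 90% of all probe sets. List medians lie between -0.11 and 0.02, and the point at 2.71 is 1 probe set of Phgdh.

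Other genes of the pathway were read from 7 lists, in which 7 of 239 probe sets passed by limma, or 2.93%, close to the 2.33% of all probe sets. Each of these calls was lost when any 1 wild type array was left out, and without mutant replicate 1 the count was 37, or 15.5%, beside 11.2% of all probe sets. In the list of eIF2 and eIF2B, with 9 of 12 genes measured by 26 probe sets, 2 probe sets fell and 0 rose, beside 1.39% lower and 0.941% higher over all probe sets, and the median difference was -0.005. Of the 26, 10 had an unadjusted p under 0.05 by limma and 12 had groups that did not overlap. Those are larger shares than the 19.1% and 26.1% of all probe sets, which include many dim ones. In the fit of probe sets with a mean log2 of at least 7, 1839 of 6890 had such a p. Several probe sets of the list measure the same gene, and no set test was run, so these shares cannot show an enrichment. Eif2s2, the beta subunit of eIF2, had 10.81, 10.75 and 10.92 in mutant and 11.41, 11.38 and 11.32 in wild type samples on 1417712_at, a fall of 0.54 ± 0.09 (log2, SE, adjusted p = 0.0346, limma). Eif2s3x, the gamma subunit encoded on the X chromosome, had 7.98, 7.83 and 7.45 in mutant and 8.58, 8.52 and 8.56 in wild type samples on 1421895_at, a fall of 0.80 ± 0.14 (adjusted p = 0.0391). The groups lay apart for both, and the remaining Eif2s3x probe sets differed by -0.43 and -0.28. Mutant replicate 3, the array with the high Eif2s3y, was the lowest for Eif2s3x, and without it Eif2s3x differed by -0.65 (adjusted p = 0.0295). Other Eif2s2 probe sets differed by -0.49 to 0.17 and the mean over all of them by -0.18 (adjusted p = 0.309), so the size of the Eif2s2 fall depends on the probe set. Eif2b2 of eIF2B differed by -0.33 ± 0.09 (adjusted p = 0.107), with another of its probe sets at 0.23, and Eif2b5, its catalytic subunit, by 0.21 ± 0.10. Eif2s1, the alpha subunit that the kinases phosphorylate, was not analysed here.

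Of the phosphatases and regulators of the kinases, 14 of 17 genes were measured by 31 probe sets, 1 fell (1.39% of all probe sets did), 0 rose, and the median was -0.11. Of the 31, 12 had an unadjusted p under 0.05 by limma and 16 had groups that did not overlap. Here too the shares were larger than the 19.1% and 26.1% of all probe sets, with the same limits. Several of these probe sets measure the same gene, such as those of Hsp90aa1 and of Hspa8. Hspa8, a constitutive Hsp70, read 12.33, 12.40 and 12.20 in mutant and 12.80, 12.83 and 12.80 in wild type samples on 1420623_x_at and fell by 0.50 ± 0.09 (adjusted p = 0.0438, limma). Its other probe sets differed by -0.32 to -0.11. Hsp90aa1, of the Hsp90 chaperones that bind HRI, differed by -0.37 ± 0.09 (adjusted p = 0.0772) and Nck1, an adaptor that recruits a phosphatase to eIF2, by -0.38 ± 0.09 (adjusted p = 0.0783). The dimmer Nck1 probe set differed by -0.005. Oma1, the mitochondrial protease that signals to HRI, read 7.19, 7.15 and 6.98 in mutant and 6.73, 6.59 and 6.43 in wild type samples, a difference of 0.52 ± 0.11 that did not pass (adjusted p = 0.0651). Ppp1r15b, the constitutive partner of the eIF2 alpha phosphatase, differed by 0.14 ± 0.16 on its brightest probe set and by -0.19 on the other. Dnajc3, an inhibitor of PKR and PERK, differed by 0.05 ± 0.13 on its brightest probe set. All other Dnajc3 probe sets had the lower mean in mutant samples, with differences of -0.32 to -0.13.

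Transcription factors of the ATF, C/EBP and AP-1 families (19 of 20 genes, 32 probe sets) had 0 probe sets that passed by limma and 5 with an unadjusted p under 0.05, a smaller share than the 19.1% of all probe sets. The lowest p-values belonged to Batf3 (-0.47 ± 0.14), Jdp2 (0.34 ± 0.13) and Atf2 (-0.26 ± 0.10). These probe sets of Batf3 and Jdp2 are dim (mean log2 4.32 and 3.80). The probe sets of Atf2 disagreed, the brightest at 0.13 and the others at -0.01 and 0.006. Atf3, which ATF4 induces, showed how far mutant replicate 1 stood from the others, with 7.93, 4.43 and 5.01 in mutant and 5.50, 5.48 and 5.55 in wild type samples. Its difference was 0.28 ± 0.80 with that array and -0.79 without it (adjusted p = 0.0271). Cebpb, a partner of ATF4, ran the same way, with 8.28, 7.28 and 6.78 in mutant and 7.53, 7.58 and 7.49 in wild type samples (difference -0.09 ± 0.33). Atf5 differed by 0.17 ± 0.14 and Cebpg by 0.15 ± 0.15.

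Among ATF4 targets for amino acid transport (10 of 11 genes, 13 probe sets) 0 passed by limma and 0 had an unadjusted p under 0.05, with a median of 0.02. Slc3a2, the heavy chain of several exchangers, differed by 0.13 ± 0.09, and the cystine carrier gene Slc7a11 by 0.02 ± 0.09. Slc7a11 is dim (mean log2 3.48), which limits what its difference can show. The neutral amino acid carrier gene Slc1a4 differed by -0.34 ± 0.18 and the glycine carrier gene Slc6a9 by -0.29 ± 0.22 on the probe sets with the lowest p, but by 0.04 each on their brightest. These Slc1a4 probe sets are dim too (mean log2 4.03 and 4.71). Slc1a5, a glutamine carrier gene chosen after its values were seen, read 5.54, 8.24 and 7.91 in mutant and 7.70, 7.73 and 7.45 in wild type samples, so mutant replicate 1 lay below and the other mutant arrays above all wild type arrays.

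Genes of amino acid and one-carbon metabolism (15 of 20 genes, 38 probe sets) included the largest difference of all 7 lists. Of the 38, 7 had an unadjusted p under 0.05 by limma and 11 had groups that did not overlap, against 19.1% and 26.1% of all probe sets. Phgdh, the first enzyme of serine synthesis, read 10.50, 9.43 and 9.41 in mutant and 7.17, 7.16 and 6.90 in wild type samples on 1454714_x_at, a rise of 2.71 ± 0.28 (log2, SE), or 6.52-fold (adjusted p = 0.00773, limma). The other Phgdh probe sets did not pass and differed by 0.52 ± 0.22, 0.22 ± 0.26 and 0.07 ± 0.18, all with the higher mean in mutant samples, and on all 4 mutant replicate 1 was the highest array. The groups did not overlap for the brightest of them, 1437621_x_at, either. The mean over the 4 Phgdh probe sets differed by 0.88 (adjusted p = 0.130), so the size of the rise depends on the probe set. All 4 carry the suffix for probes that can match other transcripts, and cross-matching was not tested. Aldh18a1, which starts proline synthesis, read 5.80, 5.60 and 5.99 in mutant and 6.59, 6.58 and 6.31 in wild type samples on 1415836_at and fell by 0.70 ± 0.14 (adjusted p = 0.0488). Its other probe sets differed by -0.34 to 0.004. Shmt2, the mitochondrial serine hydroxymethyltransferase, differed by -0.59 ± 0.16 (adjusted p = 0.111) on 1426423_at but by 0.0086 on its brightest probe set and by -0.11 and 0.06 on the others. Psat1, the next enzyme of serine synthesis after Phgdh, differed by 0.05 ± 0.15 on its brightest probe set. On 1454607_s_at Psat1 differed by 0.39 ± 0.18 without overlap, and this did not pass (adjusted p = 0.288, limma).

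**Figure D4:**
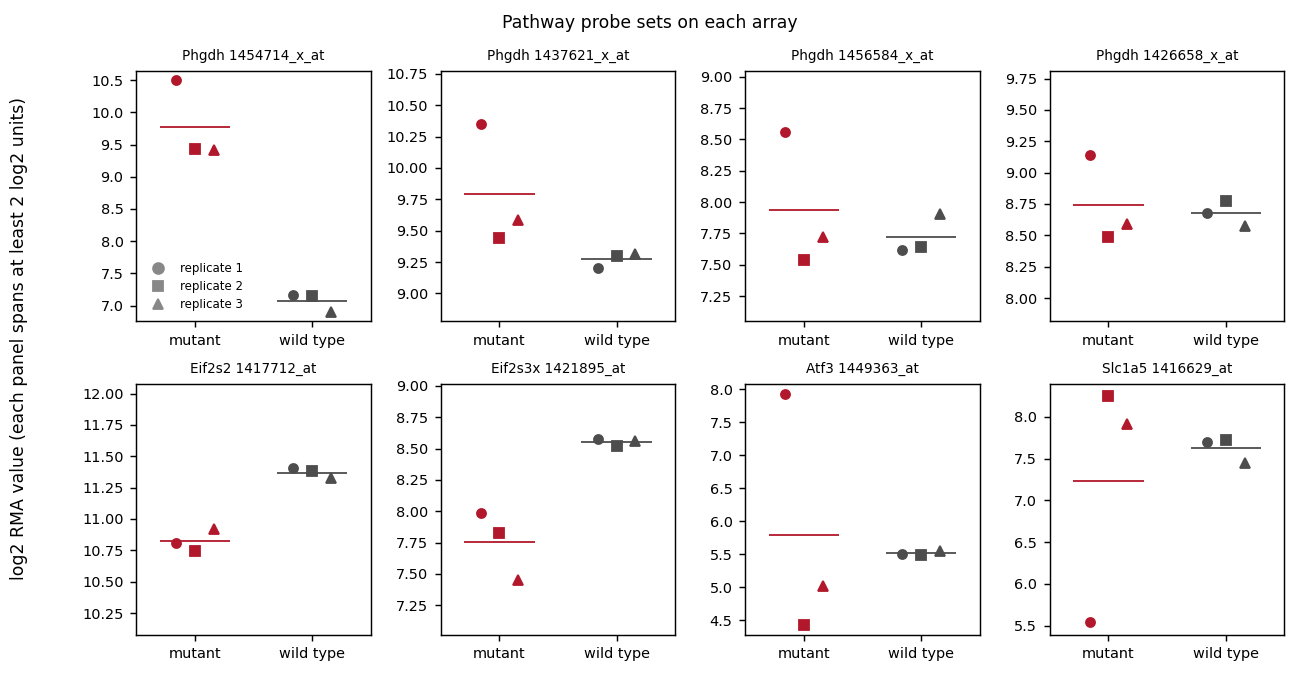
Log2 RMA values (vertical axis, its range set per panel) of the 4 Phgdh probe sets and 1 probe set each of Eif2s2, Eif2s3x, Atf3 and Slc1a5 on the 3 mutant arrays (red, left) and 3 wild type arrays (grey, right); bars are group means. The groups do not overlap for Phgdh 1454714_x_at and 1437621_x_at and overlap for the other Phgdh probe sets, and mutant replicate 1 stands apart for Atf3 (7.93) and Slc1a5 (5.54).

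Other targets of ATF4 and CHOP (25 of 28 genes, 54 probe sets) had 0 that passed by limma and 7 with an unadjusted p under 0.05, again a smaller share than the 19.1% of all probe sets, and a median of -0.03. Grb10, an adaptor of growth factor receptors, read 6.97, 6.78 and 7.18 in mutant and 7.53, 7.52 and 7.46 in wild type samples, without overlap (difference -0.53 ± 0.12, adjusted p = 0.0709). Hmox1, haem oxygenase, differed by -0.30 ± 0.09 and Ero1a, an oxidase of the endoplasmic reticulum, by -0.45 ± 0.18 on 1419030_at, while the brighter Ero1a probe sets differed by 0.03 and -0.04. Sesn2 differed by -0.12 ± 0.16 and Ddit4, an inhibitor of mTOR, by 0.21 ± 0.27.

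In the other branches of the unfolded protein response (22 of 23 genes, 45 probe sets) 2 probe sets fell and 0 rose, beside 1.39% lower and 0.941% higher over all probe sets, with a median of -0.09. Of the 45, 11 had an unadjusted p under 0.05 by limma and 12 had groups that did not overlap, against 19.1% and 26.1% of all probe sets. Canx, the chaperone calnexin, read 8.74, 8.21 and 8.46 in mutant and 9.20, 9.22 and 9.41 in wild type samples on 1422845_at and fell by 0.81 ± 0.15 (adjusted p = 0.0417, limma), while its other probe sets differed by -0.42 and -0.10. Dnajc10, a disulphide reductase of the endoplasmic reticulum, fell by 0.51 ± 0.10 on 1426905_a_at (adjusted p = 0.0480), with its other probe sets at -0.39 and -0.35. Sel1l, of the degradation machinery, differed by -0.47 ± 0.11 on 1425188_s_at (adjusted p = 0.0723). The brightest Sel1l probe set differed by -0.16 with overlap, and the others by -0.44 and -0.13. Hspa5, the chaperone BiP that holds PERK inactive, read 12.42, 11.88 and 11.53 in mutant and 12.05, 12.08 and 12.11 in wild type samples (difference -0.13 ± 0.21), and Xbp1 differed by 0.08 ± 0.24. Plasma cells are rich in such transcripts, and the summed signal of 4 measured plasma cell markers of 6 listed was 684 to 1372 on mutant and 1396 to 1495 on wild type arrays. The 4 went different ways, with log2 differences of -2.88 for Jchain (adjusted p = 0.0348), 0.58 for Sdc1, 0.08 for Xbp1 and -0.27 for Tnfrsf17, which was dim. Their part in the falls of Canx and Dnajc10 was not tested.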

How the data were processed

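The authors deposited log2 values, 1 column per array. GCOS and Affymetrix Expression Console with RMA, which corrects background, quantile normalises and summarises probes, are named by the submitters' processing notes. Not given in the sources used here are versions and the arrays normalised together. Of 22690 probe sets, 64 controls were left out. The platform annotation gave 1 symbol for 20380 of the other 22626, several for 691 and none for 1555. All 19 probe sets of the 10 genes matched GRCm38.p6 gene entries, which changed 0 symbols.

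Mutant samples were set against wild type samples in limma 3.58.1 (R 4.3.3), using lmFit and eBayes without covariates, two-sided. P-values were adjusted by Benjamini-Hochberg over all 22626 probe sets and called under 0.05. Single values used exact permutation tests (Python 3.11.15, scipy 1.17.1). Fits were tested on simulated data.

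The genes and lists were chosen with earlier results of these data known. Named were all probe sets of the 10 genes, from each list the called genes and the 3 with the lowest p, 17 measured fixed genes, and the 5 profiles most like Atf4. Marker sums add the unlogged values of the brightest probe set per gene. Alternatives covered variance priors, weights, scaling, dim filters, probe set choice, thresholds, the replicate block and leaving out each array. The number of arrays limits the precision.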

Additional observations from a re-analysis of the deposited data

Results flagged for a closer look

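Control probe sets lie outside the comparison of the genes, and 1 group of them separated the arrays. Bacterial polyadenylated RNA controls, which are added before labelling, read 11.58, 13.43 and 13.47 on mutant arrays and 8.77, 8.75 and 8.74 on wild type arrays (mean log2), a difference of 4.07. These controls do not measure any of the 10 genes, and their part in the differences reported above was not tested.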

How the results depend on the processing

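The count of probe sets that passed was 528 of 22626. It was 2667 with array weights, 112 with the replicate block, 81 without the shared variance, 41 with the brightest probe set per gene, 47 with the mean of all probe sets per gene, 1386 at an adjusted p under 0.10, 130 with a difference of at least 1 log2 unit as well, and 36 to 2544 when 1 array was left out (36 without wild type replicate 2 and 2544 without mutant replicate 1). Among the 19 probe sets of the 10 genes the count was 1, and it was 4 with array weights, 2 at an adjusted p under 0.10, 0 with a mean log2 of at least 7, which drops both Eif2ak2 probe sets, 0 with the replicate block, without the shared variance, with the brightest probe set, with the mean per gene and with the size limit, and 0 to 3 when 1 array was left out. In those fits with 0 called by limma, 2 to 5 features of these genes had an unadjusted p under 0.05. With a mean log2 of at least 7 it was 2 of 9, beside 1839 of all 6890. With the replicate block it was 5 of 19, beside 3857 of 22626. With the brightest probe set it was 3 of 10 and with the mean per gene 2 of 10, beside 2158 and 2107 of 12393. Nothing particular to these genes can be read from such counts. In the 7 lists the count of 7 was 32 with array weights, 4 after quantile normalisation without controls, 1 with the replicate block, without the shared variance and with the size limit, 0 with 1 value per gene, 17 at an adjusted p under 0.10, and 0 to 37 when 1 array was left out.

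Some differences changed sign, many of them near 0 but not those of Atf3 (0.28) and Ddit4 (0.21). With array weights these were Eif2ak3 (0.041 for 1449278_at and 0.078 for 1453505_a_at), Slc7a11 (-0.012), Atf3 (-0.48), Dnajc3 (-0.00092), Psat1 (-0.082) and Sesn2 (0.052). On the mean of a gene's probe sets they were Eif2ak1 (-0.11), Trib3 (-0.077), Atf4 (-0.037), Eif2ak3 (0.019), Ppp1r15b (-0.026) and Dnajc3 (-0.16). Leaving out 1 array gave -0.090 to 0.23 for Eif2ak1 1421901_at, -0.32 to 0.15, -0.26 to 0.086 and -0.011 to 0.21 for the Atf4 probe sets 1438992_x_at, 1439258_at and 1448135_at, and -0.088 to 0.055 and -0.20 to 0.14 for Eif2ak3 1449278_at and 1453505_a_at. It gave -0.37 to 0.074 for Hspa5, -0.50 to 0.25 for Cebpb, -0.012 to 0.05 for Slc7a11, -0.13 to 0.44 for Ddit4, -0.15 to 0.37 for Xbp1, -0.79 to 0.96 for Atf3, -0.069 to 0.16 for Dnajc3, -0.11 to 0.14 for Psat1 and -0.25 to 0.065 for Sesn2. No named difference changed sign under either scaling. Of all results for named probe sets, 736 kept their direction and side of the threshold, 58 lost and 26 gained the call. The causes were not tested.

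Same-numbered samples deviated together by correlations of 0.051, 0.028 and 0.056 for replicates 1, 2 and 3, and each sample correlated best with its own number. These correlations are small and use deviations from means of 3 arrays, so they cannot decide whether same-numbered samples were processed together. The main fit left the number out, and counts with it as a block are given above.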
